A study of Sus scrofa with 35 samples.

Results

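Platelet transcripts were examined in the whole blood of 35 castrated male growing pigs. Platelets are cell fragments shed by megakaryocytes of the bone marrow. They lack a nucleus but keep mRNA, and in whole blood this mRNA is measured together with that of red and white cells. A list of 10 genes was followed, in which PF4 and PPBP encode chemokines of the platelet alpha granules, THBS1 encodes the granule protein thrombospondin 1, SELP and TREML1 encode proteins of the granule membrane that reach the surface on activation, ITGA2B and ITGB3 encode the fibrinogen receptor, GP9 and GP1BA encode parts of the von Willebrand factor receptor, and TUBB1 encodes the beta tubulin of the platelet marginal band. Probes whose gene name in the scanner files equalled a gene of this list were found for 6 of the 10 genes, with 17 probes among the 60305 distinct probes of the array. These were THBS1 with 7 probes, ITGB3 with 3, GP9, PPBP and TUBB1 with 2 each, and SELP with 1. A further 7 probes lay under other names, which added PF4, ITGA2B and GP1BA. This gave 24 probes of 9 genes, among 10983 named genes in the table. The PF4 probe was recognised only by its description. No probe was found for TREML1. All 24 probes were among the 39072 probes of the authors' log2 table.

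The pigs were Creole (CR), Large White (LW) or F1 pigs of the cross between both breeds. They were slaughtered either under thermoneutral (TN) conditions, labelled 24 °C, or after heat stress (HS), labelled 30 °C and given as 32 °C for 5 d in the protocol text. Each group held 6 pigs, except CR pigs under TN with 5, and each pig had 1 array. The labels give no age, pen, day of slaughter or parents. All TN pigs were slaughtered before the temperature was raised, so climate and time of slaughter cannot be told apart. The 75th percentile of the processed intensity of an array ranged from 112 to 329 and was lowest in F1 TN pigs (112 to 186), against 172 to 266 in F1 HS pigs. Of the 24 probes, 21 were well above background on all 35 arrays, among them that of PF4. On single arrays, 55.2% to 68.0% of spots were well above background. All 24 probes had already been kept by the authors as expressed, so this count alone says little about platelets. The 21 include all 7 probes of THBS1, which monocytes also express, and repeated sequences on both spots. The probes not well above background on every array were PPBP O310 (34 of 35 arrays), TUBB1 A_72_P440531 (32) and ITGB3 O9593 (28). ITGB3 O9593 was well above background on 3 of 6 arrays in F1 TN and in LW HS pigs. In whole blood, fewer platelets and less RNA per platelet cannot be told apart.

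Probe sequences are shown where the probes of a gene behaved differently from each other, or where the probe ends in a stop triplet. Each probe had 60 bases, written 5′ to 3′. The probes of GP9 and PPBP below end in a stop triplet, given in capitals, that closes a reading frame with no earlier stop. They were not matched to a transcript. The probes of THBS1 and TUBB1 below did not vary with the other probes of these genes. Both have at least 1 forward reading frame without a stop. This does not set them apart, since TUBB1 A_72_P440531 and THBS1 A_72_P624042 also have such a frame.
GP9 A_72_P440401: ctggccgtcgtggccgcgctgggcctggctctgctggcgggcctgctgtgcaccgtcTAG
PPBP A_72_P035431: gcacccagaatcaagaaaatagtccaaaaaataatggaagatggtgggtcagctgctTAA
THBS1 A_72_P151688: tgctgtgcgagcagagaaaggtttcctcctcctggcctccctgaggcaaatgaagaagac
TUBB1 O10961: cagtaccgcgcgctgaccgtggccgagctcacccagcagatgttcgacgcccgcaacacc
The ITGB3 probe A_72_P762355 holds a run of 30 bases, given next in capitals, that it shares with a probe named for CYP24A1, a vitamin D hydroxylase.
ITGB3 A_72_P762355, shared run: GTTGCCGTGAGCTGTGGTGTAGGTTGCAGA
These 2 probes were among the brightest of the table, at ranks 4 and 2. The ITGB3 probe shared at least 20 bases with 3 probes of another or of no gene name. Of all probes on the array, 19.6% shared a run of that length with at least 1 other probe.

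Levels of platelet transcripts differed widely between pigs of the same group. PF4 had the largest spread of the list, with log2 intensities from 5.90 to 13.44 over the 35 pigs, a 186-fold range. Its SD within groups was 1.86 on the log2 scale, which ranked 22 among 39072 probes. ITGB3 (probe A_72_P223672, SD 1.54, rank 68), PPBP (O310, 1.45, rank 87) and SELP (A_72_P232527, 1.30, rank 144) were also among the most variable probes of the table. TUBB1 (A_72_P440531) ranked 286 with an SD of 1.03, and ITGA2B (A_72_P303309) ranked 396 with 0.93. Ranges over all pigs were 153-fold for ITGB3, 44.6-fold for PPBP, 26.4-fold for SELP, 21.2-fold for TUBB1 and 21.6-fold for ITGA2B. Those of PPBP O310 and TUBB1 A_72_P440531 include arrays on which the probe was not well above background.

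The array carried 3 of the 60-base sequences on 2 spots each. Such spots share RNA, labelling and hybridisation, so their difference measures the noise between spots alone. The spots of ITGB3 had a Pearson r of 0.998 over 35 pigs, with an SD of their difference of 0.10 on the log2 scale against an SD between pigs of 1.58. For PPBP (A_72_P035431) these SDs were 0.09 and 1.11, and for ITGA2B 0.25 and 0.89. Other probes of the list varied less. The 6 THBS1 probes other than A_72_P151688 had SDs within groups of 0.62 to 0.71 and GP9 A_72_P440401 of 0.47. GP1BA, the ligand-binding chain of the von Willebrand factor receptor, had an SD within groups of 0.21. The bright ITGB3 probe A_72_P762355 had an SD of 0.07, smaller than that of all but 3 probes. It took only 6 distinct values on the 35 arrays, since it ranked between 3 and 9 on each and quantile normalization gives each rank a fixed value.

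**Figure D1:**
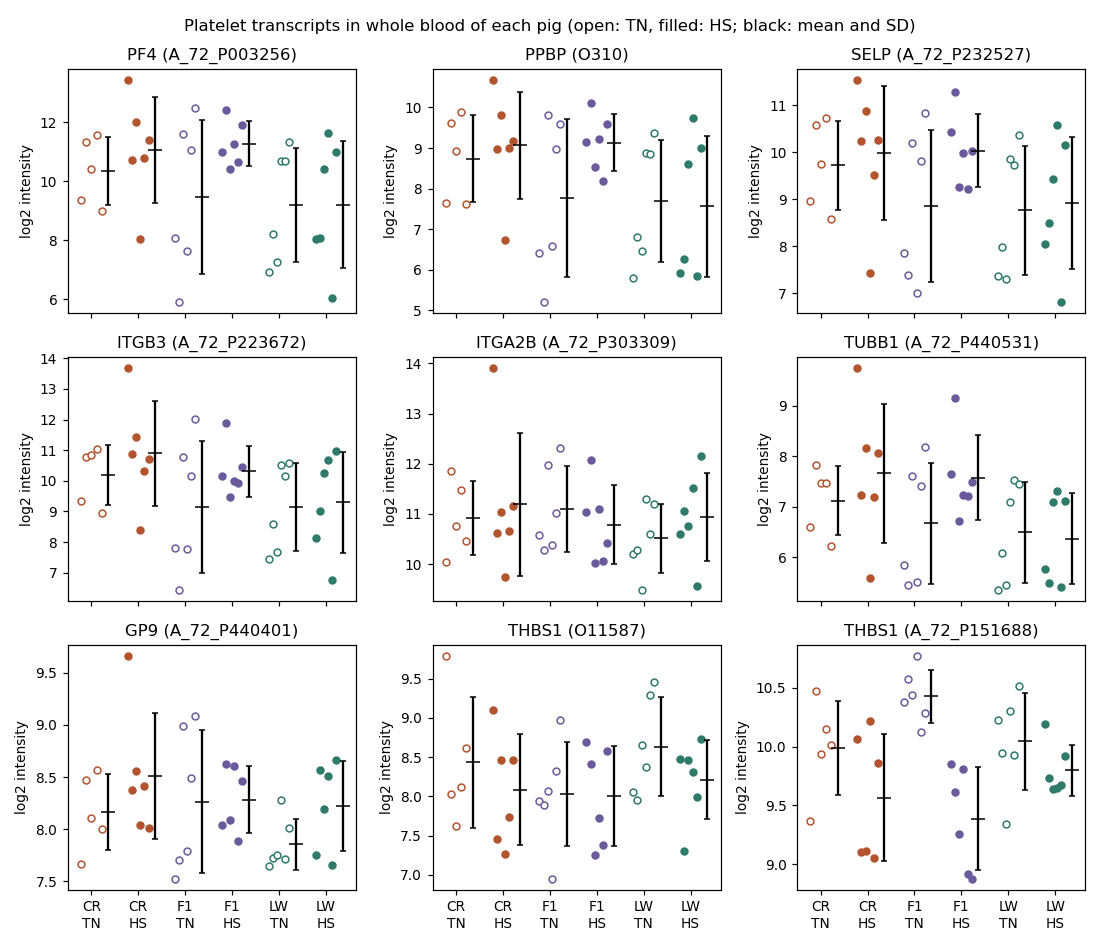
Log2 intensity (y axis) of 9 probes of 8 platelet genes in each pig, by breed and climate (x axis). Open points are TN pigs, filled points HS pigs, and black bars the mean and SD of a group of 5 or 6 pigs. For PF4, PPBP and SELP the groups overlap throughout, and PF4 spans 5.90 to 12.48 in F1 TN pigs, whereas the values of THBS1 A_72_P151688 in F1 TN and F1 HS pigs do not overlap.

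PF4 had log2 intensities of 9.35, 11.32, 10.41, 11.57 and 8.98 in the 5 CR TN pigs. Its lowest, median and highest values were 8.03, 11.08 and 13.44 for CR pigs under HS, 5.90, 9.55 and 12.48 for F1 pigs under TN, and 10.40, 11.12 and 12.40 for F1 pigs under HS. They were 6.93, 9.44 and 11.31 in LW TN pigs and 6.04, 9.25 and 11.63 in LW HS pigs. All 6 groups overlapped, and F1 HS pigs were the only group without a pig below 10. The largest gap in PF4 among the 35 pigs lay between 9.35 and 10.40, with 12 pigs below it. These were 3 of 6 F1 TN pigs, 3 of 6 LW TN pigs, 3 of 6 LW HS pigs, 2 of 5 CR TN pigs, 1 of 6 CR HS pigs and 0 of 6 F1 HS pigs.

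PPBP, the precursor of the chemokine NAP-2, gave a similar picture. Its probe O310 read 7.65, 9.61, 8.93, 9.90 and 7.63 in CR TN pigs. The lowest, median and highest values were 6.75, 9.09 and 10.69 for CR pigs under HS, 5.21, 7.77 and 9.83 for F1 pigs under TN, and 8.20, 9.19 and 10.11 in F1 HS pigs. In LW pigs they were 5.81, 7.84 and 9.37 under TN and 5.84, 7.44 and 9.74 under HS. Means were ordered from LW HS (7.56 ± 1.75, SD, n = 6) through LW TN (7.70 ± 1.51, n = 6), F1 TN (7.77 ± 1.94, n = 6), CR TN (8.74 ± 1.07, n = 5) and CR HS (9.06 ± 1.31, n = 6) to F1 HS (9.14 ± 0.69, n = 6). The largest gap between neighbours in this order was 0.97, between F1 TN and CR TN, against an SD within groups of 1.45. Groups farther apart in the order were not compared in this way.

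SELP, the adhesion receptor P-selectin, which endothelial cells also make, read 8.96, 10.58, 9.75, 10.72 and 8.58 in CR TN pigs. Its lowest, median and highest values were 7.43, 10.25 and 11.54 for CR pigs under HS, 7.01, 8.84 and 10.84 for F1 pigs under TN, and 9.22, 10.01 and 11.28 in F1 HS pigs. In LW pigs they were 7.31, 8.85 and 10.37 under TN and 6.82, 8.96 and 10.58 under HS. As for PPBP, LW and F1 TN pigs had the lowest means and CR HS and F1 HS pigs the highest, with overlap among all groups. These values came from the probe A_72_P232527, and the probe of a second SELP sequence had an r of 0.98 with it after removal of group means.

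Among the receptors, ITGB3 (A_72_P223672) read 9.33, 10.77, 10.84, 11.05 and 8.95 in CR TN pigs and reached 13.69 in a CR HS pig, replicate 1. Its group means ran from 9.15 ± 2.15 (SD, n = 6) in F1 TN pigs to 10.90 ± 1.72 (n = 6) in CR HS pigs. ITGA2B, the partner chain of ITGB3, had means between 10.51 ± 0.68 (n = 6) in LW TN pigs and 11.19 ± 1.42 (n = 6) in CR HS pigs. GP9 (A_72_P440401) had means between 7.86 ± 0.24 (n = 6) in LW TN pigs and 8.51 ± 0.60 (n = 6) in CR HS pigs. GP1BA stayed between 5.94 and 6.10 in all group means. For 23 of the 24 probes, no neighbours in the order of the 6 group means differed by more than the SD within groups. The exception was the bright ITGB3 probe, with 1 such gap of 0.09. Neighbours alone cannot show how far groups at the ends of the order differ. THBS1 A_72_P151688, among the 23, had means from 9.39 in F1 HS to 10.43 in F1 TN pigs. Its SD within groups was 0.39, and 48.4% of its variance lay between groups.

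A few pigs stood at the ends of the scale for many probes. CR HS replicate 1 was the highest of the 35 pigs for 12 of the 24 probes, with repeated sequences counted on both spots. CR TN replicate 1 was the highest for 6 probes, all of THBS1, and had 9.35 for PF4. F1 TN replicate 2 was the lowest for 4 probes and LW HS replicate 5 for 5 probes.

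Co-variation between pigs was measured on log2 values after the mean of each group had been removed. With each gene given by its brightest probe, the 15 pairs of the 6 genes found by name had Pearson r from -0.44 to 0.95, with a median of 0.07. This median was 0.66 when each gene was given by the mean of its probes and 0.22 with another ITGB3 probe, and leaving out 1 array gave 0.01 to 0.20. The median over all pairs of probes in the table was -0.005. After adjustment over the 15 pairs, 4 were past the threshold of 0.05 by Pearson r and 4 by Spearman rho (two-sided permutation within groups, 100000 resamples). PPBP and SELP were the closest pair, with r = 0.95 and rho = 0.95 (adjusted p = 7.5e-05 for each, from the smallest p that the resamples can give). Pearson r of GP9 was 0.78 with PPBP (adjusted p = 0.0001, permutation test) and 0.77 with SELP (adjusted p = 7.5e-05, permutation test). Without the 2 pigs farthest from the median of the former gene, these r were 0.95, 0.77 and 0.75. With slide means removed as well, they were 0.97, 0.81 and 0.82. Within the 4 slides of at least 6 arrays, r of PPBP and SELP lay between 0.92 and 0.99, r of GP9 and PPBP between 0.40 and 0.94, and r of GP9 and SELP between 0.53 and 0.95. The fourth pair was negative and joined the bright ITGB3 probe with THBS1 A_72_P151688 (r = -0.44, adjusted p = 0.013; rho = -0.52, adjusted p = 0.0027; permutation test). For 3 of the 6 genes the brightest probe was one that did not follow the other probes of its gene, so the probes are described separately in what follows.

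Across all 24 probes, the 242 pairs of different genes had a median r of 0.48, and 146 of them were past the threshold after adjustment over all 276 pairs (155 by Spearman rho, permutation test). These pairs count the 3 repeated sequences on both spots. Over the 21 distinct sequences, 103 of 182 pairs were past the threshold, with a median r of 0.46. An r of at least 0.5 was reached by 41.2% of these 182 pairs, against 7.68% of all pairs of probes in the table. PF4, PPBP, SELP, ITGB3 and TUBB1 formed a tight block, chosen after the values were seen and therefore given without a test. Over the 38 pairs of different genes among its 10 probes, without the bright ITGB3 probe and TUBB1 O10961, r ranged from 0.80 to 0.98 with a median of 0.93. In the whole table, 0.598% of the pairs of probes reached an r of 0.8. PF4 had r = 0.98 with PPBP (O310), 0.97 with SELP and 0.97 with ITGB3 (A_72_P223672). TUBB1 (A_72_P440531) had r = 0.96 with ITGB3 (O9593) and 0.94 with SELP (A_72_P232527). The lowest r of these 38 pairs within a single slide was 0.65, and within a single group of pigs 0.52.

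**Figure D2:**
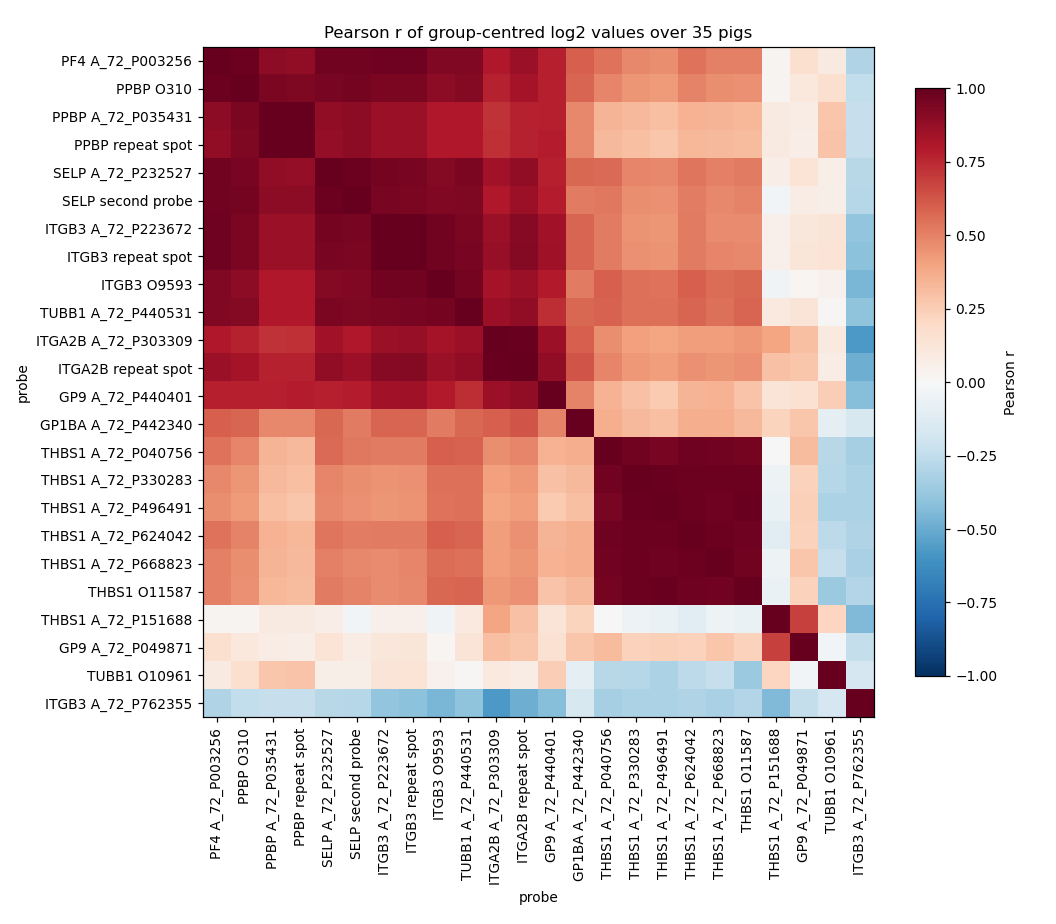
Pearson r (colour, from -1 to 1) between all pairs of the 24 platelet probes over 35 pigs, after removal of group means, with probes on both axes. PF4, PPBP, SELP, ITGB3 and TUBB1 A_72_P440531 form a block with r of 0.80 to 0.98 between genes, 6 THBS1 probes form another with r of at least 0.95, and the last 4 probes in the order stand apart.

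Other receptors joined this block less closely. ITGA2B had r between 0.73 and 0.91 with its probes and GP9 A_72_P440401 between 0.74 and 0.85. The dim GP1BA probe had r between 0.48 and 0.60. THBS1, which monocytes also express, gave a second block. Its 6 probes other than A_72_P151688 had r of 0.95 to 0.99 with each other, of which A_72_P330283 and A_72_P496491 share 57 bases. These 6 probes had r of 0.28 to 0.60 with PF4, PPBP, SELP, ITGB3 and TUBB1, and 0.41 to 0.49 with the mean of 14 monocyte markers. With the means of lists of other platelet genes, their r was 0.40 to 0.48 for receptors and 0.46 to 0.52 for granule proteins. For signalling and cytoskeletal proteins it was 0.49 to 0.58.

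The remaining probes behaved differently from the other probes of their genes. THBS1 A_72_P151688 had r between -0.11 and -0.00 with the other 6 THBS1 probes. It had an r of -0.79 with the brightness of the array, 0.61 with the mean of 22 red cell markers and 0.82 with the mean of 8 transcription factors of megakaryocytes. At an r of at least 0.8 it was joined by 2252 probes of the table, against 260 for PF4. GP9 A_72_P049871 had r = 0.15 with GP9 A_72_P440401 and 0.68 with THBS1 A_72_P151688. TUBB1 O10961 had r = 0.01 with TUBB1 A_72_P440531 and 0.49 with the red cell markers. ITGB3 A_72_P762355 had r = -0.39 with ITGB3 A_72_P223672. The part of array brightness and of red cell transcripts in these correlations was not tested.

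**Figure D3:**
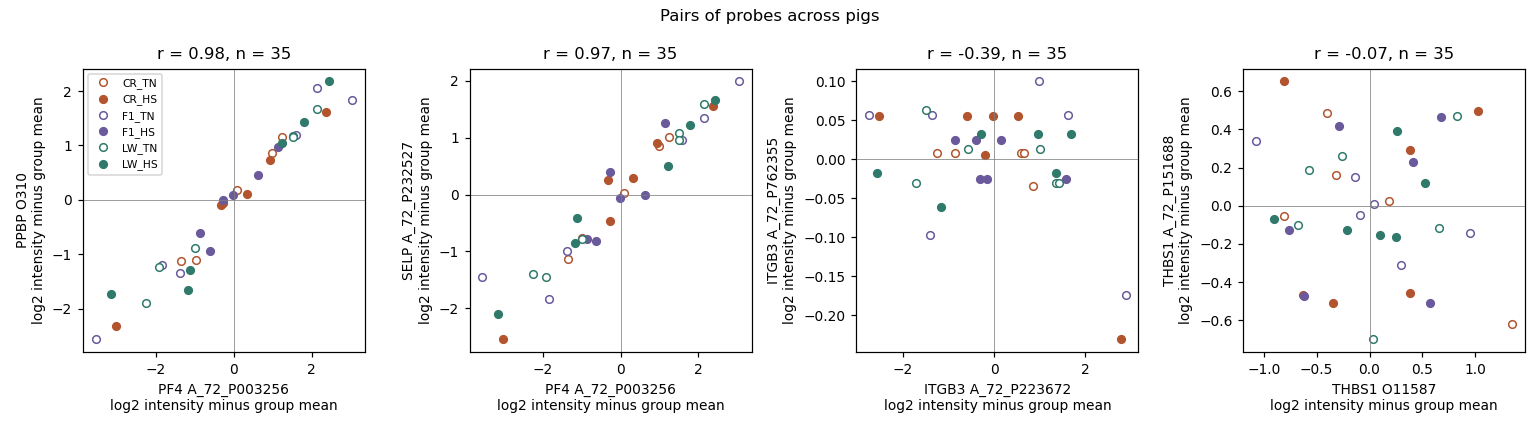
Log2 intensity minus the group mean of a probe (y axis) against that of another (x axis), 1 point per pig, coloured by breed and open for TN, filled for HS. PF4 with PPBP (r = 0.98) and with SELP (r = 0.97) lie along a line, whereas the bright ITGB3 probe (r = -0.39) and THBS1 A_72_P151688 (r = -0.07) do not follow another probe of the same gene.

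The genes most like the platelet genes were then listed. Likeness was the Pearson r of a gene's brightest probe with the mean of the 6 genes found by name. It was taken over 35 pigs, without group means. Each of the 6 genes was given by its brightest probe, divided by its SD. For ITGB3 (A_72_P762355), THBS1 (A_72_P151688) and TUBB1 (O10961), this was a probe that did not follow the other probes of its gene. Likeness to this mean is therefore not likeness to the tight block alone. Among 10975 other genes, the 10 highest were SEP5 (r = 0.91), CALD1 (0.86), MTURN (0.85), GUCY1A3 (0.84), TMEM40 (0.84), P2RX1 (0.84), SORT1 (0.83), CMTM5 (0.83), MAP1A (0.83) and GGT1 (0.82). SEP5 encodes a septin, CALD1 the actin-binding caldesmon, GUCY1A3 a subunit of the nitric oxide receptor and P2RX1 an ATP receptor of platelets. Of these 10, CALD1, GUCY1A3, TMEM40, P2RX1 and CMTM5 were on the lists of platelet genes. When the mean was taken over all 9 genes, 6 of the 10 were also among the 10 highest. The mean of the 9 genes holds the same probes of the 6 genes, so it is no independent check. With the mean of all 24 probes, only GGT1 of the 10 was among the 10 highest (1 of 10), and SEP5 ranked 129 (r = 0.74), P2RX1 139 and GUCY1A3 73. The lowest were TNRC6C (-0.89), SBDS (-0.89) and SON (-0.87). The median over all genes was 0.06.

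Other platelet genes varied with the mean of the 9 genes in part. An r of at least 0.8 was reached by 5 of 17 measured platelet receptors, 6 of 22 granule proteins and 11 of 34 signalling and cytoskeletal proteins, but by 0 of 8 transcription factors of megakaryocytes, against 67 of 10975 genes (0.611%). Among the receptors, GP1BB, which pairs with GP1BA, had an r of 0.90, and GP6, the collagen receptor, 0.82. Among granule proteins, VWF had 0.89 and F13A1 0.86. MYL9 and TPM4, which act in contraction, each had 0.88. The medians of the lists were 0.37, 0.29, 0.54 and 0.30 in the above order, against 0.06 over all genes.

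Markers of other blood cells were compared in the same way. No red cell (22 measured), neutrophil (14), T and cytotoxic cell (21) or B cell (10) marker reached an r of 0.5 with the mean of the 9 genes. A single monocyte marker of 14, STAB1 (0.57), and a single endothelial marker of 9, TIE1 (0.77), did. The medians were -0.06 for red cells, -0.09 for neutrophils, 0.28 for monocytes, -0.26 for T and cytotoxic cells, -0.001 for B cells and 0.17 for endothelial cells. The mean of the T and cytotoxic cell markers had r of -0.45 with PF4 and -0.48 with SELP (A_72_P232527), and the brightness of the array had 0.19 and 0.15.

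**Figure D4:**
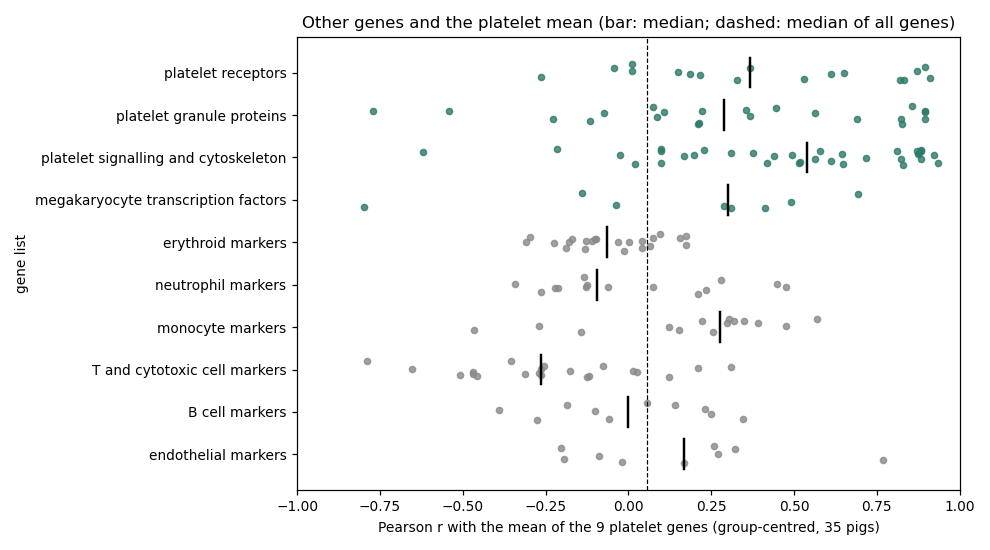
Pearson r with the mean of 9 platelet genes (x axis, from -1 to 1) for each gene of 10 lists (y axis), over 35 pigs without group means. Black bars are list medians and the dashed line the median of all 10975 genes; 22 genes of the 3 platelet protein lists lie at 0.8 or above and none of the markers of other cells does.

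Whether HS changed platelet transcripts was tested with limma over all probes of the table. By this test 34.8% of the 39072 probes differed between HS and TN, 20.1% being higher and 14.7% lower, with a median log2 difference of 0.06. With each gene given by its brightest probe, 1 of the 6 genes found by name was past the threshold, which was THBS1. Of the 17 probes found by name, 1 passed as well, and the 7 probes under other names added none. The THBS1 probe, A_72_P151688, was down-regulated by HS, with a log2 difference of -0.57 (SE 0.14, limma adjusted p = 0.0028). Its values were 9.37, 10.47, 9.94, 10.15 and 10.01 in CR TN pigs against a lowest, median and highest value of 9.06, 9.48 and 10.22 in CR HS pigs. They were 10.12, 10.41 and 10.77 in F1 TN pigs against 8.88, 9.44 and 9.85 in F1 HS pigs, and 9.34, 10.09 and 10.51 in LW TN pigs against 9.64, 9.70 and 10.19 in LW HS pigs. The climates did not overlap in F1 pigs and overlapped in CR and LW pigs. The other 6 THBS1 probes had log2 differences of -0.15 to -0.32, with limma adjusted p from 0.21 to 0.62. With the mean of the red cell markers in the model, the difference of A_72_P151688 was -0.27 (limma adjusted p = 0.25), and 0.00256% of all probes were past the threshold. Without the F1 pigs, its difference was -0.33 (limma adjusted p = 0.28) and no probe of the table was past the threshold.

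None of the probes of the tight block passed the test. The log2 difference of HS minus TN was 0.86 for PF4 (SE 0.59, limma adjusted p = 0.25), 0.52 for PPBP O310 (SE 0.46), 0.54 for SELP A_72_P232527 (SE 0.41), 0.67 for ITGB3 A_72_P223672 (SE 0.48) and 0.44 for TUBB1 A_72_P440531 (SE 0.33). With red cell markers as a covariate, the differences were 0.07 for PF4, -0.0064 for PPBP O310 and 0.04 for SELP A_72_P232527. They were 0.13 for ITGB3 A_72_P223672, 0.02 for TUBB1 A_72_P440531, 0.19 for PPBP A_72_P035431 and -0.017 for the second SELP probe. In LW pigs alone, without this covariate, the differences were 0.02 for PF4, -0.14 for PPBP O310 and 0.15 for SELP A_72_P232527. They were 0.14 for ITGB3 A_72_P223672, -0.13 for TUBB1 A_72_P440531 and -0.22 for ITGB3 O9593. The last of these probes was well above background on 3 of 6 LW HS and 5 of 6 LW TN arrays. ITGA2B had 0.13 (SE 0.29) and GP9 A_72_P440401 0.24 (SE 0.15) over all breeds. Of the 24 probes, 15 had a positive and 9 a negative difference, with a median of 0.21. Since these transcripts vary so much between pigs, a difference of 2 SE corresponds to more than 1 unit on the log2 scale for PF4, and a smaller difference would not pass this test even without adjustment.

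Within breeds, HS against TN was past the threshold for 1 of the 6 genes in F1 pigs, where 38.7% of all probes were (20.8% higher and 17.9% lower). This was again THBS1 A_72_P151688, with a log2 difference of -1.04 (SE 0.22, limma adjusted p = 0.00065). With array brightness or red cell markers as a covariate, 0 of the 6 genes and no probe of the table were past the threshold in F1 pigs, and with gene means 0 of the 6 genes were. By probes, GP9 A_72_P049871 was also down-regulated in F1 pigs, by 0.52 on the log2 scale (log2 difference -0.52, SE 0.19, limma adjusted p = 0.028), whereas GP9 A_72_P440401 had 0.02 (SE 0.26). PF4 had a log2 difference of 1.82 in F1 pigs (SE 1.01, limma adjusted p = 0.15), 0.73 in CR pigs (SE 1.06) and 0.02 in LW pigs (SE 1.01). None of the 6 genes was past the threshold in CR pigs, where 0.00% of all probes were, nor in LW pigs, also at 0.00%. At an unadjusted limma p under 0.05, 3466 probes in CR pigs and 3404 in LW pigs differed, and 0 of the 24 platelet probes in either breed. The interaction of breed and climate, which tests whether the effect of HS differed between breeds, was past the threshold for none of the 6 genes and 0.00% of all probes (limma F test). By the unadjusted limma F test it included 5807 probes, among them THBS1 A_72_P151688 as the single platelet probe of the 24 (limma adjusted p = 0.31).

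**Figure D5:**
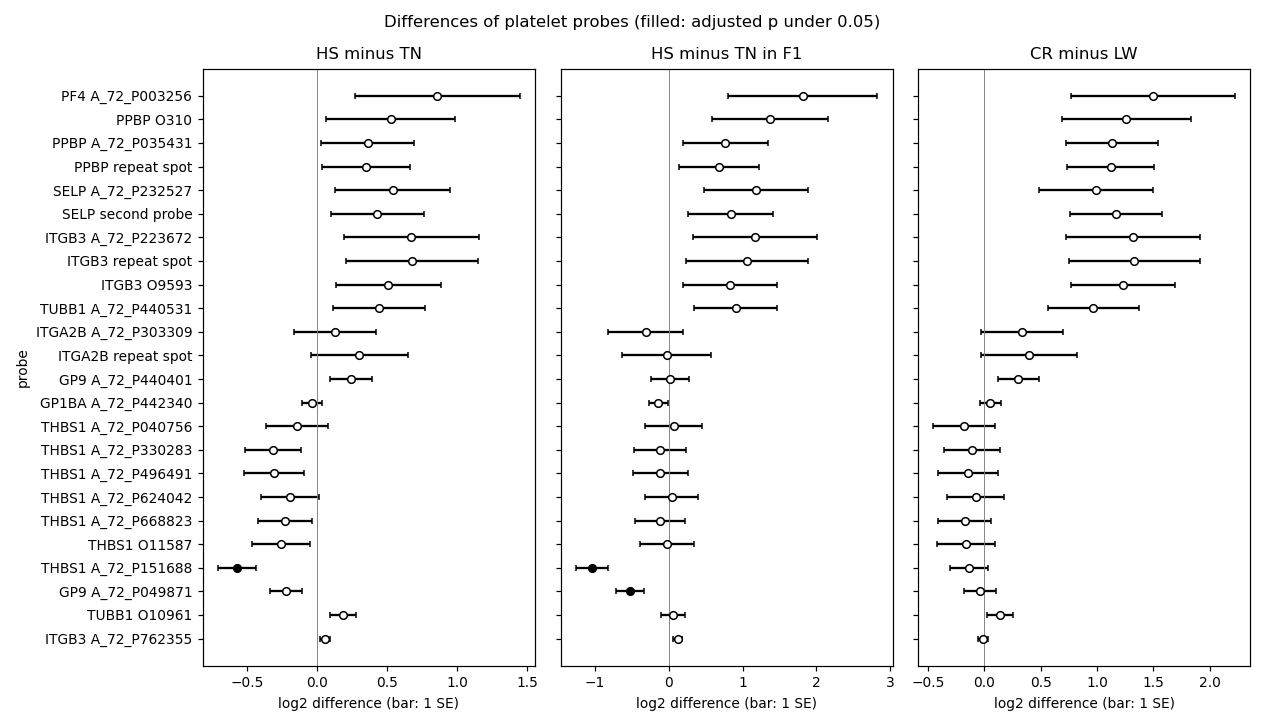
Log2 difference (x axis) of the 24 platelet probes (y axis) for HS minus TN over all breeds, HS minus TN in F1 pigs and CR minus LW, with bars of 1 SE. Filled points are past the adjusted threshold of 0.05, namely THBS1 A_72_P151688 in the first panel, this probe and GP9 A_72_P049871 in the second, and none in the third.

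Between breeds, none of the 6 genes was past the threshold for CR minus LW, where 1.08% of all probes were (0.571% higher and 0.507% lower). The block of co-varying probes was higher in CR than in LW pigs at its point estimates. The log2 difference was 1.498 for PF4 (SE 0.73, unadjusted p = 0.047, limma adjusted p = 0.48), 1.26 for PPBP O310 (SE 0.57), 1.32 for ITGB3 A_72_P223672 (SE 0.59), 0.99 for SELP A_72_P232527 (SE 0.51) and 0.97 for TUBB1 A_72_P440531 (SE 0.41). At an unadjusted limma p under 0.05, 9 of the 24 platelet probes were included, against 3950 of all 39072 probes. Of the 9, 5 were found by name. All 9 lie in the co-varying block, which was chosen after its values were seen, so they are not separate results. ITGB3 A_72_P223672 and PPBP A_72_P035431 are counted on both of their spots. The smallest adjusted p was 0.20, for the repeat spot of PPBP A_72_P035431. THBS1 had log2 differences of -0.08 to -0.18 over its 7 probes. For F1 minus CR and F1 minus LW, none of the 6 genes was past the threshold, where 0.184% (0.107% higher and 0.0768% lower) and 0.0256% (0.00768% higher and 0.0179% lower) of all probes were, and at an unadjusted limma p under 0.05 none of the 24 probes was included in either, against 1933 and 1751 of all probes.

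Other platelet genes were tested by lists, each gene given by its brightest probe. Of 17 measured platelet receptors (of 29 listed), 2 were higher under HS, 3 were lower and 12 did not pass the test, with a median log2 difference of 0.13. Of 22 granule proteins (of 29), 5 were higher, 1 was lower and 16 did not pass (median 0.19). Of 34 signalling and cytoskeletal proteins (of 46), 9 were higher, 2 were lower and 23 did not pass (median 0.28). Of 8 transcription factors of megakaryocytes (of 16), 0 were higher, 5 were lower and 3 did not pass (median -0.31). Over all probes, 20.1% were higher and 14.7% lower, 34.8% in all, with a median of 0.06.

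Among the receptors, TBXA2R, the thromboxane receptor, was down-regulated by HS (log2 difference -0.77, limma adjusted p = 0.0016), whereas PECAM1, an adhesion protein shared with white and endothelial cells, was up-regulated (0.51, limma adjusted p = 0.0059). ITGA6 (0.25) and PEAR1 (-0.27), well above background on 31 and 33 of 35 arrays, also passed. Of the granule genes, the membrane protein CD63 (0.37, limma adjusted p = 0.0016), the SNARE protein VAMP8 (0.30) and NBEAL2 (0.25), which is needed to form alpha granules, were up-regulated and the growth factor PDGFA (-0.62) was down-regulated. In the third list, the cytoskeletal ACTN1 (0.46, limma adjusted p = 0.0017) and the eicosanoid enzymes PTGS1 (0.33) and TBXAS1 (0.48) were up-regulated. PTGS1 was well above background on 32 of 35 arrays, with 4 of 5 in CR TN and 4 of 6 in F1 TN pigs. MAX, a partner of the transcription factor MYC, was down-regulated (-0.51). The transcription factors GATA2 (-0.68), GFI1B (-0.56), MAFG (-0.33) and GATA1 (-0.28), which also act in red cell precursors, were down-regulated. Genes that varied closely with the mean of the 9 genes, at an r of at least 0.8, numbered 22 in the 3 platelet protein lists. Of these, 1 was past the threshold, against 34.8% of all probes. This was ILK, an integrin-linked kinase (log2 difference 0.33, limma adjusted p = 0.039), which was chosen after its values were seen. Not passing does not show that the others were unchanged. The log2 differences of the 22 genes ran from 0.08 for TMEM40 (SE 0.17) to 1.015 for CLU (SE 0.50). Of the genes named before ILK, the r with the mean of the 9 genes was 0.69 for GATA1, 0.64 for ACTN1, 0.61 for PTGS1, 0.53 for PECAM1 and 0.52 for TBXAS1. It was 0.37 for PDGFA, 0.33 for TBXA2R, 0.31 for GFI1B, 0.29 for GATA2, 0.22 for NBEAL2 and 0.17 for MAX. For CD63 it was 0.07, for PEAR1 0.01, for ITGA6 -0.04, for VAMP8 -0.12 and for MAFG -0.14. The median over all genes was 0.06. All 16 genes named before ILK were past the threshold with breed and climate as the terms of the model. None of them was when the mean of the red cell markers was added or the F1 pigs were left out. In these fits 0.00256% and 0% of all probes were past the threshold, so the loss was not particular to these genes.

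Red cell markers moved with climate in the same samples. Of 22 measured markers (of 32 listed), 12 were lower under HS, 1 was higher and 9 did not pass the test, with a median log2 difference of -0.61. Their mean log2 intensity ranged from 10.87 to 12.62 in F1 TN pigs and from 9.34 to 11.23 in F1 HS pigs, from 10.55 to 11.79 and 9.98 to 11.66 in CR TN and HS pigs, and from 10.90 to 11.74 and 10.55 to 11.33 in LW TN and HS pigs. After removal of group means, PF4 had an r of -0.34 and THBS1 A_72_P151688 an r of 0.61 with this mean. Among endothelial markers, 9 were measured (of 14 listed), of which 1 was higher and 2 were lower under HS, and the range of their mean was 7.31 to 7.99 over all pigs. For monocytes 5 were higher and 2 lower of 14, for neutrophils 0 and 2 of 14, for T and cytotoxic cells 3 and 2 of 21, and for B cells 4 and 1 of 10. These counts stand against 20.1% higher and 14.7% lower over all probes. The part of these cells in the differences of the platelet genes was not tested beyond the fit with red cell markers.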

How the data were processed

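Whole blood RNA was collected in PAXgene tubes and hybridised, labelled with Cy3, to a custom porcine Agilent array, with 1 array per pig. According to the deposited file headers, Agilent Feature Extraction 10.10.1.1 read the spots. Each deposited array file gives the intensity of a spot as a median, a mean, a local background and a processed signal. The authors quantile-normalized the intensities to log2 values and kept expressed probes, by a rule not given in the sources used here. The table had 39072 probes, values of 4.60 to 19.01 and array medians of 7.13. An own quantile normalization of the deposited median intensity gave r = 0.99997 with it. For arrays, their number limits the precision.

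Groups were taken from the labels. Probes were named by gene symbol, an older symbol, a gene identifier or an accession in RefSeq-based tables. Others kept the name in the array files. The PF4 probe was taken by its description in those files alone. In the table, 17324 probes had no name. The files place 0 probes on a chromosome, and no coordinates are given. Each gene was represented by its brightest probe. Probes were fitted with limma 3.58.1 in R 4.3.3 (lmFit, eBayes, two-sided, Benjamini-Hochberg over all 39072 probes, threshold 0.05). An additive model of breed and climate gave HS minus TN and breed contrasts, and 6 group means gave effects within breeds and the interaction. The random effects of the study (pen, day of slaughter, father, mother) could not be fitted without labels, so pigs were treated as independent. Correlations were computed in Python 3.11.15 on group-centred log2 values, with permutation within groups. Named genes were the platelet members, up to 4 genes per platelet or megakaryocyte list with the smallest p for HS minus TN among those past the threshold, and the 10 genes most and 3 genes least like the platelet mean. Other genes were named after their values were seen. The members and lists were chosen with earlier results of these data known. Scripts were tested on simulated data. Alternatives were other normalizations, filters, slide as a block, array weights, brightness or red cell markers as a covariate, gene means and leaving out arrays or F1 pigs.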

Additional observations from a re-analysis of the deposited data

Results flagged for a closer look

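The values of each probe were checked within groups of 5 or 6 pigs for a pig far from the others, relative to the range of the group. Of 144 groups checked, 6 held such a pig, and chance alone flags about 1 in 20. CR HS replicate 1 was highest for GP9 A_72_P440401, at 9.66 against 8.56 in the next pig, and for ITGA2B A_72_P303309, at 13.91 against 11.17. It was lowest for the bright ITGB3 probe A_72_P762355, at 18.54 against 18.77. CR TN replicate 4 was lowest for the same ITGB3 probe, at 18.73 against 18.77 in each of the other pigs of its group. LW HS replicate 2 was lowest for THBS1 A_72_P496491, at 8.34 against 9.12. CR TN replicate 1 was lowest for TUBB1 O10961, at 9.69 against 10.28.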

How the results depend on the processing

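Of the 6 genes found by name, 1 was past the threshold for HS minus TN. This count was 2 with scaling on the 75th percentile and with array weights, where TUBB1 O10961 was past the threshold too, and it was 0 with red cell markers as a covariate, with gene means over all probes and without the F1 pigs. In F1 pigs the count of 1 became 2 with scaling on the 75th percentile, and 0 with array brightness or red cell markers as a covariate and with gene means. Leaving out 1 array gave counts of 1 to 2 for HS minus TN, with 2 without F1 TN replicate 4, and 1 to 1 within F1 pigs. All other counts were 0 to 0 on leaving out an array and stayed at 0 under the alternatives run. The median r of the 15 pairs, 0.07, was 0.66 with gene means and 0.48 over all probe pairs of different genes, an alternative chosen after seeing the data; leaving out 1 array gave 0.01 to 0.20. With the members under other names it was 0.22, and with another ITGB3 probe 0.22, both chosen after seeing the data. The sign of HS minus TN turned for ITGB3 A_72_P762355 with scaling on the 75th percentile (-0.14), for PPBP O310 (-0.0064) and the second SELP probe (-0.017) with red cell markers as a covariate, for GP1BA without the F1 pigs (0.016) and for ITGA2B A_72_P303309 without CR HS replicate 1 (-0.039), none of them past the threshold in any of these fits. The cause was not tested. No paired analysis was possible because the replicate numbers follow the sample records and pair no animals.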

Other observations

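Among genes of the platelet lists, some ran against the mean of the 9 platelet genes over pigs. SRGN, which encodes the granule proteoglycan serglycin and is also made by white cells, had an r of -0.77, the transcription factor IKZF5 -0.80 and the small GTPase RAP1B -0.62. CCL5, a chemokine stored in platelets and made by T cells, had -0.23.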
